A study of Bos taurus with 16 samples.

Results

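Glucose transporters and glycolytic enzymes were followed in bovine blastocysts through 10 genes. These were the transporters SLC2A1 and SLC2A3, the hexokinases HK1 and HK2, and the enzymes GPI, ALDOA, TPI1, GAPDH, PGK1 and LDHA. Members were found as rows of the count tables that carried the symbol as gene name, and every locus was entered once. Of the 10 symbols, 9 were found, in 10 of the 22358 loci, because GAPDH named 2 loci that were kept apart. PGK1 was not found under that name and was not analysed here. The rule matched symbols by name and used no measured value, but the members were chosen with earlier results of these data known.

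The blastocysts came from 8 Holstein dairy cows, 4 on each of 2 diets fed from calving until the embryos were collected. The control treatment (Control in the labels) was a basal diet, and the methionine-rich treatment (Methionine in the labels) was the same basal diet with rumen-protected methionine. All cows were superovulated and artificially inseminated, and the expanded blastocysts of each cow were divided into 2 pools, named C1.1 to C4.2 for control and M5.1 to M8.2 for methionine-rich, with the cow before the point. The methods describe embryos flushed from the cows, whereas the tissue label reads IVF embryos. RNA of whole pools was linearly amplified before sequencing. A value is an average over the embryos of a pool, except in C4.1, C4.2 and M8.2, which held a single blastocyst each. No control pool held more than 2 blastocysts, whereas several methionine-rich pools did, and the part of pool size in the values was not tested. By the study's supplement, M8.1 and M8.2 had the lowest concentrations of amplified RNA of all pools. Several methionine-rich pools had lower RNA quality numbers than any control pool with a value. The part of RNA concentration and quality in the values was not tested either. Each value also joins trophectoderm, inner cell mass and hypoblast, so fewer cells of a type and less RNA per cell cannot be told apart.

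Glucose enters cells through facilitative transporters of the SLC2A (GLUT) family, and hexokinases then phosphorylate it, which keeps it inside. GPI converts glucose 6-phosphate to fructose 6-phosphate, ALDOA splits fructose 1,6-bisphosphate, TPI1 interconverts the resulting triose phosphates, GAPDH and PGK1 carry out the steps that lead to the first ATP yield, and LDHA favours the conversion of pyruvate to lactate. Cleavage-stage embryos rely mainly on pyruvate and lactate, and glucose uptake and glycolysis rise with compaction and blastocyst formation, when much of the glucose taken up by trophectoderm is converted to lactate.

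The total count per pool was between 5624126 and 7826542 in the 15 pools used, 7 control and 8 methionine-rich, with a median of 7257007. Pool C3.2 had a total of 1745048. It was left out, as in the study, for its low share of reads on exons. Values are CPM, the count of a locus scaled to a common total in every pool, and 3 counts correspond to 0.383 to 0.533 CPM in the 15 pools. The 8 trophectoderm markers and the 5 inner cell mass markers each exceeded 3 counts in at least 1 of the 15 pools. The trophectoderm markers summed to 3781 to 9678 CPM in control and 3051 to 7036 CPM in methionine-rich pools. Only 2 of 4 hypoblast markers exceeded 3 counts, and SOX17 was at 0. In C2.1, 9 of 9 leukocyte markers exceeded 3 counts and summed to 1960 CPM, against at most 40.4 CPM in any other control pool and at most 55.2 CPM in any methionine-rich pool. Granulosa and cumulus markers summed to at most 12.1 CPM in any pool, with FOXL2 and INHA at 0. Erythrocyte markers summed to at most 45.5 CPM, in M8.2, with ALAS2 making up all of it and HBA at 0, and endometrial epithelium markers to at most 41.0 CPM, also in M8.2, of which FOXA2 made up 40.5 CPM, with OXTR at 0.

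None of the 9 member loci that passed the filter on low counts was differentially expressed between treatments, where 110 of the 10519 loci tested (1.05%) were. SLC2A1, SLC2A3, GPI, ALDOA and LDHA were measured in every pool at levels above the floor of 3 counts, and their ranges overlapped between treatments. HK1 and HK2 were low, and TPI1 and both GAPDH loci were near or under the floor in most pools. For SLC2A1, SLC2A3 and GPI the 95% interval of the log2 fold change lay within 1 of 0, so a 2-fold difference in either direction was outside it, whereas for the other members a 2-fold difference lay inside the interval.

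SLC2A1 encodes GLUT1, the widely expressed basal glucose transporter, and its locus was XLOC_015299. In the control pools SLC2A1 was lowest at 168 CPM in C3.1, had a median of 210 CPM and was highest at 340 CPM in C4.2. The methionine-rich pools ran from 176 CPM in M6.2, with a median of 245 CPM, to 320 CPM in M8.1. The groups overlapped over nearly their whole ranges, and the highest of the 15 pools was only 2.02-fold above the lowest. The means were 242 ± 66.7 CPM (SD, n = 7 pools) and 253 ± 47.2 CPM (SD, n = 8 pools). Between treatments the log2 fold change, methionine-rich over control, was 0.07 (FDR = 1, edgeR exact test), and the DESeq2 estimate was 0.08 ± 0.20 (SE), with a 95% interval of -0.31 to 0.47. Averaged per cow, SLC2A1 was 233 ± 45.4 CPM in control and 253 ± 37.2 CPM in methionine-rich cows (SD, n = 4 cows each, exact permutation test, two-sided p = 0.571).

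SLC2A3 encodes GLUT3, a transporter with high affinity for glucose that is associated in the embryo with the trophectoderm. SLC2A3 (XLOC_017912) was at 867 CPM in the lowest control pool, C4.1, had a median of 1204 CPM and was at 4355 CPM in the highest, C4.2. Methionine-rich pools were between 1504 and 2623 CPM, with a median of 1794 CPM. All 8 methionine-rich pools were above the control median, but C2.2 with 1598 CPM, C3.1 with 2344 CPM and C4.2 lay among or above them, so the groups overlapped. The lowest and the highest control pools came from the same cow, and each held a single blastocyst. Control averaged 1762 ± 1254 CPM (SD, n = 7 pools) and methionine-rich 1918 ± 438 CPM (SD, n = 8 pools). The log2 fold change was 0.16 (FDR = 1, edgeR exact test) and the DESeq2 estimate 0.19 ± 0.33 (SE, 95% interval -0.46 to 0.83). The cow means were 983, 1401, 2344 and 2611 CPM for control cows 1 to 4 and 1523, 2210, 1755 and 2186 CPM for methionine-rich cows 5 to 8. The methionine-rich cows all fell inside the control range, and the treatments did not separate (exact permutation test, two-sided p = 0.914).

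**Figure D1:**
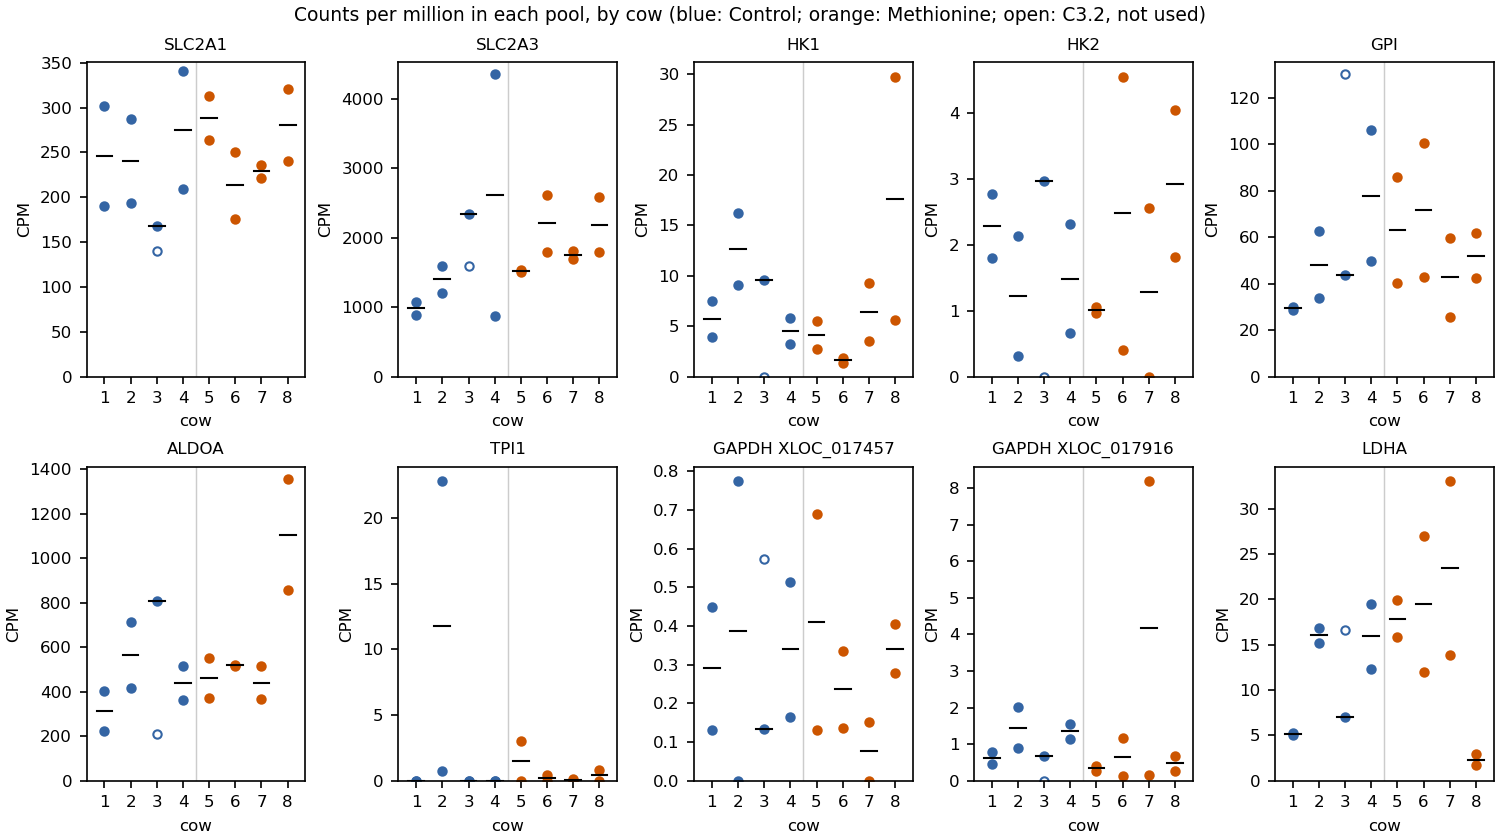
CPM of each member locus (vertical axes, linear, each with its own scale) in each pool by cow (horizontal axes), with control pools in blue, methionine-rich pools in orange, the unused pool C3.2 as an open circle and the cow mean of used pools as a bar. For SLC2A3 the pools of cow 4 are at 867 and 4355 CPM, for LDHA both pools of cow 8 are under 3 CPM, and for TPI1 C2.1 stands at 22.8 CPM above all other pools.

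HK1 and HK2 phosphorylate glucose after entry, HK1 being the general form and HK2 the form of insulin-sensitive and highly glycolytic tissues. HK1 (XLOC_013926) was between 3.21 and 16.2 CPM in control pools, with a median of 7.50 CPM, and between 1.36 and 29.7 CPM in methionine-rich pools, with a median of 4.56 CPM. The lowest methionine-rich cow was cow 6, with 1.61 CPM, and the highest cow of all was cow 8, with 17.6 CPM, so the methionine-rich cows enclosed all control cows, which lay between 4.49 and 12.7 CPM. The value of cow 8 rests on M8.2, at 29.7 CPM against 5.57 CPM in M8.1, and the part of the FOXA2 and ALAS2 counts of M8.2 in it was not tested. HK1 had a log2 fold change of -0.0035 (FDR = 1, edgeR exact test), with a DESeq2 estimate of 0.02 ± 0.67 (SE, 95% interval -1.29 to 1.32). Without cow 8 the log2 fold change was -0.95, and it was not called there either. HK2 (XLOC_002342) had 199 counts in all 15 pools together. Its control pools were between 0.310 and 2.96 CPM, with a median of 2.13 CPM, and its methionine-rich pools between 0 and 4.54 CPM, with a median of 1.43 CPM. The pool M7.2 had no HK2 count, which allows up to 0.456 CPM by counting error alone, while M7.1 from the same cow had 2.56 CPM. HK2 had a log2 fold change of 0.06 (FDR = 1, edgeR exact test) and an interval of -1.59 to 1.75, wider than that of any member except TPI1. The permutation p over cows was 0.914 for HK1 and 0.857 for HK2 (exact, two-sided, 4 cows each).

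GPI, the isomerase that also sits at the branch to the pentose phosphate pathway, was at 28.6 to 106 CPM in control pools, with a median of 43.6 CPM, and at 25.6 to 100.5 CPM in methionine-rich pools, with a median of 51.3 CPM (XLOC_006838). Each group held 1 or 2 pools clearly above the rest, C4.2 in control and M5.1 and M6.2 in methionine-rich pools, and the other pool of the same cow was lower in each case. GPI had a log2 fold change of 0.16 (FDR = 1, edgeR exact test) and a DESeq2 estimate of 0.17 ± 0.31 (SE, 95% interval -0.44 to 0.79). Cow means were 49.8 ± 20.4 CPM in control and 57.3 ± 12.6 CPM in methionine-rich cows (SD, n = 4 cows each, exact permutation test, two-sided p = 0.571). In the unused pool C3.2 GPI stood at 130.1 CPM, and with that pool in the fit the log2 fold change turned to -0.37.

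ALDOA, the general form of aldolase, was between 224 CPM in C1.1 and 809 CPM in C3.1 among control pools, with a median of 416 CPM, and between 366 CPM in M7.1 and 1355 CPM in M8.1 among methionine-rich pools, with a median of 519 CPM (XLOC_013020). Both pools of cow 8, at 1355 and 858 CPM, were above every other pool. They also had the lowest concentrations of amplified RNA, whose part in this was not tested. The remaining methionine-rich pools were between 366 and 554 CPM and lay inside the control range. ALDOA had a log2 fold change of 0.40 (FDR = 0.942, edgeR exact test), and the DESeq2 estimate was 0.42 ± 0.34 (SE, 95% interval -0.25 to 1.09). The cow means were 532 ± 212 CPM and 632 ± 318 CPM (SD, n = 4 cows each, exact permutation test, two-sided p = 0.629). Without cow 8 the log2 fold change was -0.09.

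TPI1 had 165 counts in all, of which 77.6% were in C2.1. In control pools TPI1 (XLOC_017448) had 128 counts in C2.1, which is 22.8 CPM, 5 counts in C2.2 and 0 in the other 5. Among methionine-rich pools M5.1 had 22 counts, M8.1 had 6, M6.1 had 3, M7.2 had 1, and 4 pools had 0. A count of 0 allows up to 0.383 to 0.505 CPM in those pools. TPI1 passed the filter on low counts through C2.1, the pool with leukocyte markers at 1960 CPM, and the part of leukocytes in its TPI1 count was not tested. In M5.1, the next highest pool for TPI1, the leukocyte markers summed to 20.9 CPM and 1 of 9 exceeded 3 counts. The log2 fold change of -2.90 (FDR = 0.833, edgeR exact test) turned to 1.96 without C2.1 and to 2.33 ± 2.92 (SE) in DESeq2, which can replace outlying counts, and TPI1 was called in none of them.

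GAPDH, a gene often used as a PCR reference, was named at 2 loci with few counts. The study chose it as the internal control of its PCR for stable expression in the sequenced samples, and names no locus. The locus XLOC_017457 had 0 to 5 counts in every pool, 30 in all, and did not pass the filter. The locus XLOC_017916 gave 3 to 13 counts per control pool and 1 to 7 counts in every methionine-rich pool but 1, whereas M7.1 had 64 counts, or 8.18 CPM, which was 47.1% of its total of 136, and without which it would not have passed the filter. Its log2 fold change was 0.59 (FDR = 1, edgeR exact test), against -1.21 ± 0.79 (SE) in DESeq2 and -1.09 without cow 7. Reads could map to up to 40 genomic locations, but the pool totals equal the study's numbers of uniquely mapped reads on annotated exons. Reads with several locations were thus left out of the counts. Whether reads of the GAPDH, TPI1 or PGK1 transcripts were lost in this way, or counted at other loci or under other names, was not tested.

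LDHA, the lactate dehydrogenase subunit of glycolytic tissues, was between 5.10 and 19.5 CPM in control pools, with a median of 12.4 CPM, and between 1.76 and 33.1 CPM in methionine-rich pools, with a median of 14.8 CPM (XLOC_014526). Both pools were low in cow 1, with 5.28 and 5.10 CPM, and in cow 8, with 2.92 and 1.76 CPM, while cow 2 had 16.9 and 15.2 CPM and cow 7 had 33.1 and 13.8 CPM. Methionine-rich cows 5, 6 and 7, at 17.9, 19.5 and 23.5 CPM, were above all control cows, and cow 8, at 2.34 CPM, was below all of them. The log2 fold change was 0.47 (FDR = 1, edgeR exact test), with a DESeq2 estimate of 0.48 ± 0.57 (SE, 95% interval -0.63 to 1.58). The exact permutation test over cows gave a two-sided p of 0.400, where 0.0286 is the smallest that 4 cows against 4 can give. Without cow 8 the log2 fold change was 0.84 and without cow 7 it was 0.12, and with any 1 cow left out LDHA was not called.

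Of the 9 loci tested, TPI1 and GAPDH passed the filter on low counts only through 1 pool, C2.1 and M7.1, and the direction of such loci is set by that pool. Of the other 7, the log2 fold change was above 0 for 6 and below 0 for 1, whatever the p, with a median of 0.16, and nothing is read from these counts. Over all 10519 loci 46.5% were above 0 and the median was -0.05. None of the 9 had an unadjusted p under 0.05 in the exact test, against 8.54% of all loci, and none did in edgeR's quasi-likelihood test, against 8.64%. TPI1 had the smallest FDR among members, 0.833 in the exact and 0.748 in the quasi-likelihood test. The quasi-likelihood test called 0 of 10519 loci (0.0%), so the calls among all loci themselves depend on the test. Of all calls by the exact test, 29 (0.276%) were higher in methionine-rich and 81 (0.77%) higher in control pools. Cow means did not overlap between treatments for 232 loci (2.21%) and for 0 members. After adjustment over all loci no permutation p was under 1.

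**Figure D2:**
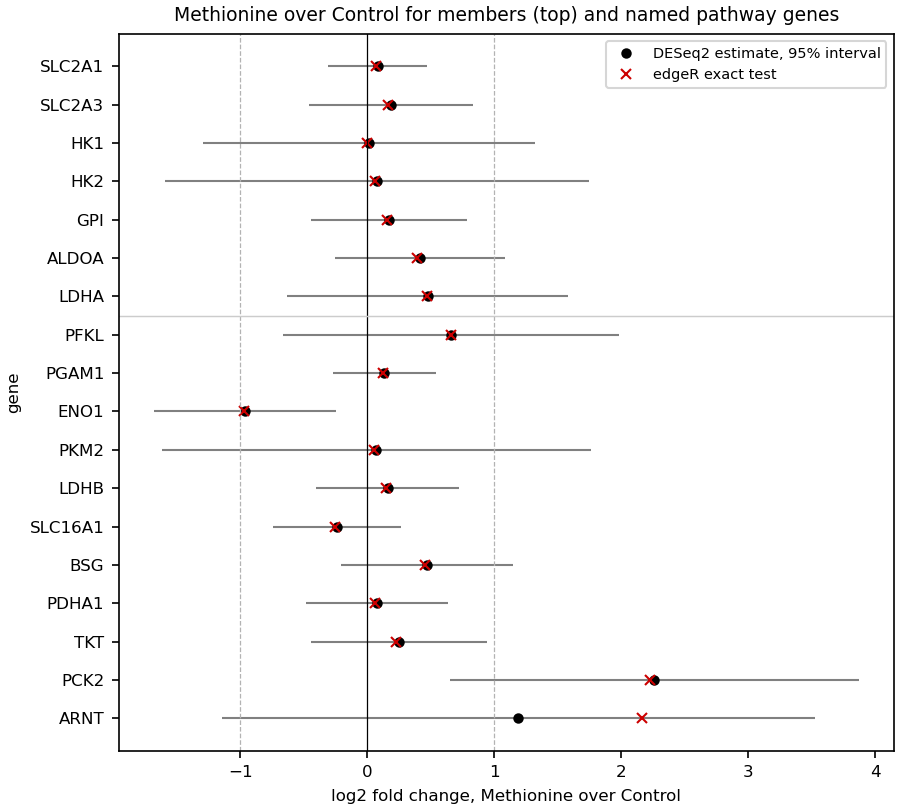
The log2 fold change of methionine-rich over control (horizontal axis) for 7 members (upper block) and 11 named genes of the same and neighbouring pathways (lower block), with the DESeq2 estimate and 95% interval in black and the edgeR exact test estimate as a red cross; dashed lines mark 2-fold. The intervals of all 7 members include 0, those of SLC2A1, SLC2A3 and GPI stay inside the dashed lines, and those of ENO1, from -1.68 to -0.25, and PCK2, from 0.65 to 3.87, are the only ones drawn that exclude 0; TPI1, GAPDH and PCK1 are not drawn.

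The members differed in how the spread of cow means compared with the spread of pools within a cow. A cow mean averages the used pools of that cow, which lowers its SD even where cows do not differ. A low ratio is thus not read as less spread between cows than within them. The SD of log2(CPM + 0.5) between cow means and the SD within a cow were 1.14 and 0.515 for LDHA, a ratio of 2.21 that was above 98.8% of the loci tested. For ALDOA they were 0.606 and 0.431, a ratio of 1.41 that was above 92.3% of loci. HK1 had a ratio of 1.09, above 80.9% of loci. For the transporters and GPI the SD between cow means was below the SD within a cow, as for the median locus, where the ratio was 0.747. SLC2A1 had 0.255 between and 0.353 within cows, SLC2A3 0.430 and 0.669, and GPI 0.436 and 0.675. Their ratios of 0.723, 0.643 and 0.646 were above 46.5%, 34.4% and 34.9% of loci. HK2 had 1.16 within and 0.588 between cows, and TPI1 1.42 and 1.27. The median locus had 0.824 between and 1.07 within cows. SLC2A1, SLC2A3, GPI, ALDOA, LDHA and HK1, with 0.836 within cows, varied less within a cow than the median locus. So did the GAPDH locus XLOC_017457, which had few counts. The part of the count level in this was not tested. The SD within a cow rests on the 7 cows with both pools. The SD between cow means rests on all 8 cows, with cow 3 entered as the single pool C3.1. The ratios are given as a description.

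**Figure D3:**
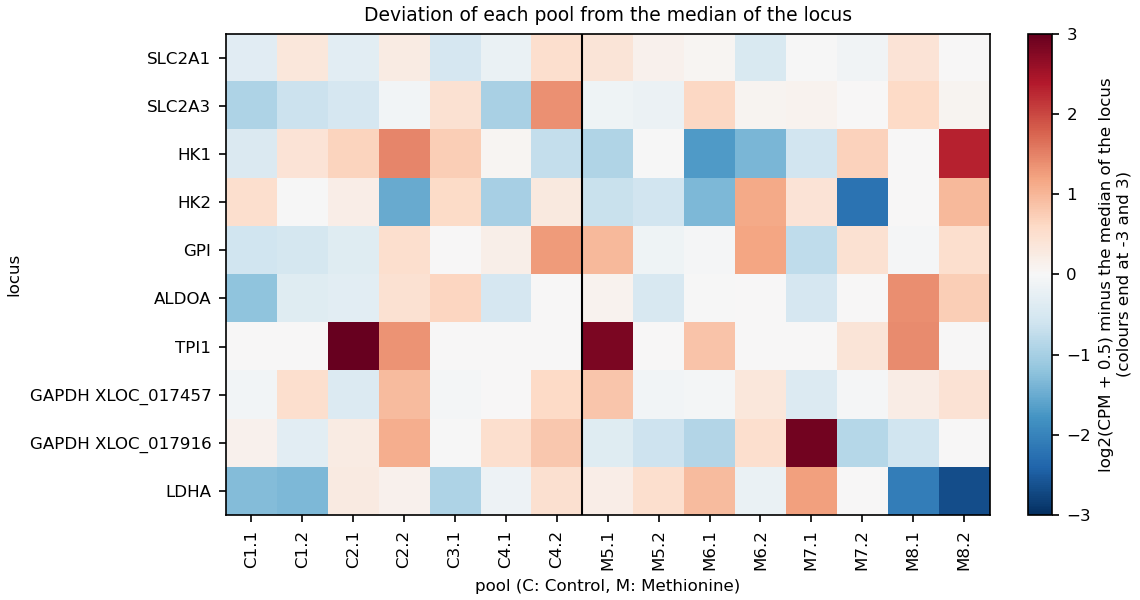
Difference of log2(CPM + 0.5) in each pool (columns, control left of the line) from the median of the locus over the 15 pools (rows, member loci), with red above and blue below the median and colours ending at 3. SLC2A1 stays pale throughout, and LDHA is blue in C1.1, C1.2, M8.1 and M8.2. TPI1 is dark in C2.1 and M5.1, and the GAPDH locus XLOC_017916 is dark in M7.1.

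Pool C4.2 was the highest of the 15 for SLC2A1, SLC2A3 and GPI, thus for 3 of the 9 member loci tested. It was also the highest for 8 of 43 loci of the wider list described next, and for 13.0% of all loci tested. Its trophectoderm markers summed to 9678 CPM, the highest of all pools, against 8377 CPM in the next control pool, and their part in these values was not tested. M8.2 was the highest pool for HK1, M6.2 for HK2, M8.1 for ALDOA and M7.1 for LDHA.

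A wider list of 71 genes of glucose use held the other transporters, the other glycolytic enzymes, regulators, lactate transport and pyruvate entry, the pentose phosphate pathway and gluconeogenesis. Of these, 70 were found and 43 passed the filter, and none was called in either direction. Unadjusted p was under 0.05 for 3 of them, PCK1, PCK2 and ENO1, in both edgeR tests, where 8.54% and 8.64% of all loci were, so 3 of 43 is no more than the background, and PCK1 rests on a single pool. Their log2 fold changes were above 0 for 26 and below 0 for 17, whatever the p, with a median of 0.05. By role, 2 of 12 other glucose transporters, 10 of 21 other glycolytic enzymes, 7 of 9 regulators, 15 of 16 genes of lactate transport and pyruvate entry, 5 of 6 pentose phosphate genes found and 4 of 6 gluconeogenic genes could be tested. The 2 transporters were SLC2A5, the fructose transporter, and a locus shared by SLC2A8 and ZNF79, whose reads cannot be told apart.

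The committed step of glycolysis, phosphofructokinase, was represented by PFKL. PFKL, the liver form, was at 1.42 to 9.29 CPM in control and 0.55 to 13.8 CPM in methionine-rich pools (log2 fold change 0.66, FDR = 0.998, edgeR exact test). PFKM, the muscle form, had at most 13 counts in the 15 pools, in C3.1, and PFKP, the platelet form, had 0 counts in all 15, which allows up to 0.383 to 0.533 CPM per pool, so neither was tested.

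Of the steps between GAPDH and LDHA, the mutase PGAM1 was measured at 648 to 1318 CPM in control and 614 to 1381 CPM in methionine-rich pools (log2 fold change 0.12, FDR = 1, edgeR exact test). ENO1, the enolase, was at 40.1 to 249 CPM in control pools, with a median of 68.4 CPM, and at 28.4 to 75.3 CPM in methionine-rich pools, with a median of 51.6 CPM. ENO1 had a log2 fold change of -0.97, with an unadjusted p of 0.0148 and an FDR of 0.318 in the edgeR exact test, so it did not pass. The cow means were 97.5 ± 63.6 CPM in control and 52.8 ± 14.3 CPM in methionine-rich cows (SD, n = 4 cows each), where cow 4 alone had 190 CPM and the exact permutation test gave a two-sided p of 0.200. Without cow 4 the log2 fold change of ENO1 was -0.39. The pyruvate kinase locus PKM2 was low, between 0.27 and 12.5 CPM in all 15 pools (log2 fold change 0.05, FDR = 1, edgeR exact test). Whether PKM2 reads with several locations were left out, or counted at other loci, was not tested.

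LDHB, the subunit of oxidative tissues, favours the conversion of lactate to pyruvate. LDHB was at 107 to 499.8 CPM in control pools, with a median of 159 CPM, and at 162 to 302 CPM in methionine-rich pools, with a median of 219 CPM (log2 fold change 0.15, FDR = 1, edgeR exact test). SLC16A1, a lactate and pyruvate carrier, had a log2 fold change of -0.26 (FDR = 0.998, edgeR exact test), and its chaperone BSG one of 0.45 (FDR = 0.913). PDHA1, a subunit of the complex that admits pyruvate to the citrate cycle, had a log2 fold change of 0.06, and TKT, of the pentose phosphate pathway, one of 0.23 (FDR = 1 for both, edgeR exact test). Among the 43 loci, cow means did not overlap for 1 (2.33%), against 2.21% of all loci. This was PDK3, which inhibits that complex and is named because its values were seen. PDK3 was at 21.7 to 41.4 CPM in control cows and 11.1 to 21.2 CPM in methionine-rich cows, with an FDR of 0.814 in the edgeR exact test.

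Of the gluconeogenic genes, PCK2, the mitochondrial phosphoenolpyruvate carboxykinase, was at 0 to 6.96 CPM in control and at 0.82 to 38.6 CPM in methionine-rich pools. For PCK2 the log2 fold change was 2.23 (unadjusted p = 0.0130, FDR = 0.309, edgeR exact test), with a DESeq2 interval of 0.65 to 3.87. Its cow means overlapped (exact permutation test, two-sided p = 0.143), and without cow 8 the log2 fold change was 1.46 (FDR = 0.862). PCK1, the cytosolic form, had 93 counts in C2.1, 1 in C3.1 and 0 in the other 13 pools (unadjusted p = 0.00729, FDR = 0.252, edgeR exact test). It passed the filter only through C2.1, the pool with leukocyte markers at 1960 CPM, whose part in it was not tested, and without C2.1 its FDR was 1. The regulator ARNT, a partner of HIF1A, had a log2 fold change of 2.17 (FDR = 0.730, edgeR exact test) with 99 counts in M7.1, 71 in M8.2 and at most 14 in any other of the 15 pools.

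Several genes were counted in few pools. In M5.1 there were 66 counts of the lactate carrier SLC16A3 and 25 counts of HK3, beside the 22 counts of TPI1. In the other 7 methionine-rich pools these 3 genes had at most 3, 5 and 6 counts. In C2.1 there were 50 counts of HK3 but 0 of SLC16A3. HK3 was set beside the others because its values were seen.

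The balance between related genes was followed within pools as a log2 ratio of CPM + 0.5, which is not corrected for transcript length and so is read only between pools. The ratio of SLC2A3 to SLC2A1 was between 1.84 and 3.80 in control pools, with a mean of 2.67 ± 0.78 (SD, n = 7), and between 2.30 and 3.39 in methionine-rich pools, with a mean of 2.92 ± 0.37 (SD, n = 8). The ratio of HK2 to HK1 had medians of -1.80 and -1.27 and ranged from -4.37 to -0.40 in control and from -4.29 to 1.10 in methionine-rich pools. For LDHA to LDHB the medians were -3.84 and -3.95, with a range of -4.96 to -3.22 in control pools. In methionine-rich pools that ratio ran from -6.17 in M8.2 to -2.85 in M6.1, a wider range, since both pools of cow 8 were low. All 3 ratios overlapped between treatments and were not tested.

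**Figure D4:**
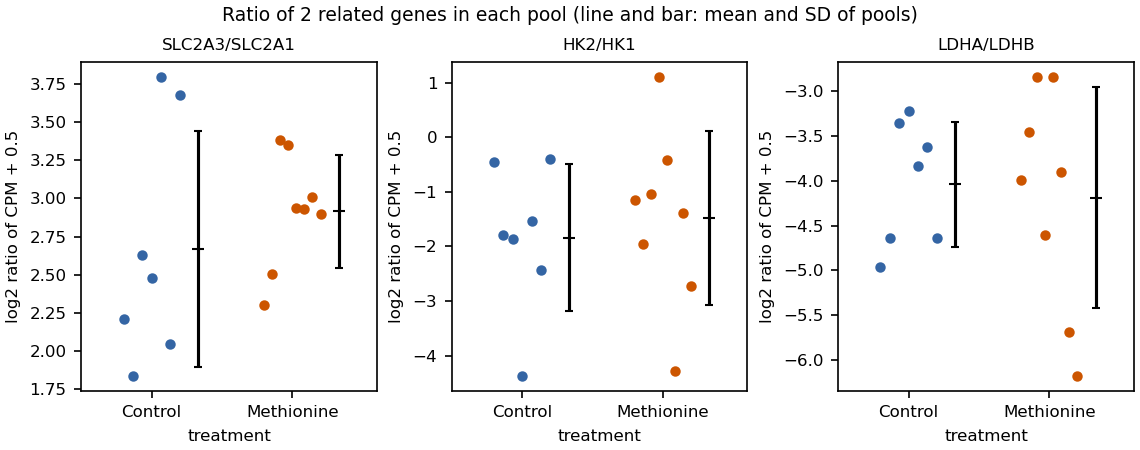
The log2 ratio of CPM + 0.5 between related genes in each pool (vertical axes, each with its own scale) for control (blue) and methionine-rich pools (orange), with the mean and SD of pools as a black bar. For LDHA to LDHB the lowest pool is M8.2 at -6.17, and for SLC2A3 to SLC2A1 the means are 2.67 in control and 2.92 in methionine-rich pools.

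In the unused pool C3.2, SLC2A1, at 139.8 CPM, and ALDOA, at 212 CPM, were lower than in any of the 15 pools. SLC2A3, at 1597 CPM, and LDHA, at 16.6 CPM, were within the range of the 15 pools. HK1 and HK2 had 0 counts in C3.2, which allows up to 1.72 CPM.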

How the data were processed

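The authors mapped reads to bosTau7 with TopHat2 2.0.4, assembled transcripts with Cufflinks 2.0.2 and obtained read numbers with htseq-count (mode intersection-nonempty). The deposited tables hold these gene counts, whole numbers without normalization, in 1 table of 22552 rows per pool. Rows of 182 loci listed under several names were entered once. No pair of pools held the same library (smallest chi-square per degree of freedom 70.6). Loci whose CPM added up to 15 or more in the 15 pools were tested with edgeR 4.0.16 in R 4.3.3, with TMM normalization, common and tagwise dispersions and the exact test. Calls required a Benjamini-Hochberg FDR under 0.10 and a fold of 2 or more. The quasi-likelihood test, DESeq2 1.42.0 and limma 3.58.1 were also run. The code was tested on simulated data. Pools of a cow are not independent, which the exact test and the DESeq2 intervals leave out, so cow means were compared over all 70 assignments of 8 cows. Floors cover counting error only.

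The members and lists were chosen with earlier results of these data known. Of the wider list, genes were named for their place in the pathway (PFKL, PFKM, PFKP, PGAM1, ENO1, PKM2, LDHB, SLC16A1, SLC16A3, BSG, PDHA1 and TKT, 1 more being not reported here), together with any gene with an FDR under 0.10 and the 3 others with the smallest p. Lane and sire per pool were not given in the sources used here. TALDO1 was not analysed here.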

Additional observations from a re-analysis of the deposited data

Results flagged for a closer look

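Among 45 groups of pools of the named genes, 13 had a highest pool far from the others. The cut-off flags about 5% of groups only for independent, normally distributed values, which these are not, so nothing is read from the number flagged. TPI1 and PCK1 passed the filter on low counts only through C2.1 and GAPDH only through M7.1, the pools flagged for them. Of the members, SLC2A3 stood at 4355 CPM in C4.2, HK1 at 29.7 CPM in M8.2, TPI1 at 22.8 CPM in C2.1 and 3.03 CPM in M5.1, and GAPDH (XLOC_017916) at 8.18 CPM in M7.1. Of the other genes, PFKL was at 9.29 CPM and PFKM at 1.75 CPM in C3.1, PKM2 at 12.5 CPM in M6.2, LDHB at 499.8 CPM in C4.2 and BSG at 552.5 CPM in M8.2. SLC16A3 was at 9.09 CPM in M5.1, TKT at 833 CPM in C2.2 and PCK1 at 16.5 CPM in C2.1.

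In the unused pool C3.2, 4 of the named genes were above all 7 other control pools, GPI at 130.1 CPM, PFKM at 104 CPM, ARNT at 124 CPM and PDHA1 at 224 CPM.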

How the results depend on the processing

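No member was called under any of 20 alternatives (tests, normalization, filters, pools or cows left out), and 388 log2 fold changes of named genes and 97 differences between cow means kept their direction, against 45 and 23 that turned. Of the wider list, 43 genes were tested, or 24 to 62 under other filters, and none was called except 3 with all 16 pools and the filter recomputed, an alternative chosen after seeing the data, where PFKM (-9.27), SLC2A2 (-8.20) and SLC5A1 (-9.40) passed with 182, 401 and 101 counts in C3.2. Over all loci 110 calls became 0 by the quasi-likelihood test, by voom with a random effect for cow, with at least 10 counts in every pool (where fewer loci could be tested) and by the quasi-likelihood test with pool number as a replicate block, which alone and with the block gave the same 0. They became 67 by DESeq2, 55 with no filter, 257 with all 16 pools, 356 with the filter recomputed as well, 66 without C2.1, and 50 to 149 with each cow left out, 64 without cow 7 and 50 without cow 8. The causes were not tested.

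Log2 fold changes of uncalled genes turned for HK1 (0.0163 by DESeq2 and 0.0163 by RLE size factors, 0.0301 with no filter, 0.21 with all 16 pools under either filter, 0.10 without C2.1), TPI1 (2.33 by DESeq2, 0.0434 by voom, 1.96 without C2.1), GAPDH (-1.21 by DESeq2, -0.80 by voom), HK2 (-0.45 by voom, -0.0557 with the pools of a cow summed), GPI (-0.37 with all 16 pools, -0.36 with the filter recomputed), and PKM2 (-0.71 by voom, -0.10 without C2.1, -0.0698 summed, -0.32 with the replicate block). With all 16 pools PDHA1 (-0.998) and ARNT (-2.96) also turned, and with the filter recomputed they were at -0.98 and -2.92. With each cow left out in turn the values spanned -0.0279 to 0.15 for SLC2A1, -0.0210 to 0.44 for SLC2A3, -0.95 to 0.34 for HK1, -0.25 to 0.31 for HK2, -0.0133 to 0.50 for GPI, -0.0875 to 0.60 for ALDOA, -3.80 to 4.81 for TPI1, -1.09 to 0.94 for GAPDH, -0.76 to 0.35 for PKM2, -0.0064 to 0.24 for PGAM1, -0.0896 to 0.26 for PDHA1 and -0.0013 to 0.57 for TKT.

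Differences between cow means turned to 0.539 CPM (HK1), 0.305 CPM (HK2) and -3.25 CPM (GPI) with all 16 pools, to 0.162 CPM (HK2) and 0.360 CPM (TPI1) without C2.1, and to -0.30 on the log2 scale for GAPDH (XLOC_017916). With each cow left out they spanned -1.26 to 34.3 CPM for SLC2A1, -200.0 to 343 CPM for SLC2A3, -4.05 to 1.29 CPM for HK1, -0.401 to 0.259 CPM for HK2, -57.8 to 193 CPM for ALDOA, -3.37 to 0.553 CPM for TPI1, and -0.0730 to 0.0415 and -0.532 to 0.743 CPM for the GAPDH loci. The pool numbers shared by cows are only numbers (mean correlation of deviations -0.072 for the same and -0.063 for another number), and the quasi-likelihood test called 0 members and 0 loci with and without this replicate block, so the fits do not separate an effect of the block on calls. TPI1 and GAPDH had at most 7 counts in most pools, which limits what the depth can show for them.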
